A study of Mus musculus with 12 samples.

Results

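Calcium enters and leaves a heart muscle cell across its surface membrane, the sarcolemma, through a small set of proteins, and the transcripts of 8 of their genes are described here in hearts of DN-MCU and WT mice. The genes are Cacna1g and Cacna1h, the pores of T-type calcium channels; Cacna1c, Cacnb2 and Cacna2d1, the pore and the auxiliary subunits of the L-type channel; Slc8a1, the sodium-calcium exchanger; and Atp2b1 and Atp2b4, calcium pumps of the plasma membrane. Every probe set annotated with exactly one of these symbols was taken, which gave 20 of the 45037 probe sets of the table that are not controls; 34945 of those carry 1 symbol each, for 18193 genes in all. Cacna2d1 has 5 of them, Slc8a1 4, Atp2b1 3, Cacna1c, Cacnb2 and Cacna1h 2 each, and Cacna1g and Atp2b4 1 each. A probe set was tested if at least 3 of its 12 values were above log2 3.35, the median of all values in the table, and 19 of the 20 were; the other, 1427607_at of Cacna1h, read 2.28 to 2.38 on the 12 arrays.

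Whole hearts of CD1 mice were profiled on Affymetrix arrays that read the 3′ ends of transcripts, with 3 arrays in each of 4 groups: adult DN-MCU mice, adult WT littermates, neonatal DN-MCU mice and neonatal WT littermates. DN-MCU stands for a dominant-negative construct of MCU, the pore of the mitochondrial calcium uniporter, and the study's title places the inhibition in the myocardium; the promoter that drives the construct is not given in the labels. Adults were 42 days old and all labelled male, and neonates were 1 day old with no sex given, so age and sex cannot be told apart in the comparison of ages. The labels do not say whether each array held 1 heart or pooled hearts, and p-values measure the spread between these arrays.

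In the ventricular muscle cell, the L-type channel opens with each action potential, and the calcium it admits triggers the larger release from the sarcoplasmic reticulum. T-type channels open at more negative voltages; they are expressed in the embryonic and newborn ventricle and, in the adult heart, are known mainly from the sinoatrial and atrioventricular nodes and the conduction system. The sodium-calcium exchanger returns most of the calcium that entered, using the sodium gradient, and the plasma membrane pumps use ATP to remove a smaller amount. Exchanger expression is known to be high around birth in several mammals and to decline as the sarcoplasmic reticulum matures.

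The arrays had medians of 3.24 to 3.46 on the log2 scale, and no 2 held identical values. The first principal component (71.7% of the variance) separated the ages. DN-MCU adult 3 stood apart on the second (13.0%), at a score of 121.4; the remaining 11 scored -50.9 to 24.4. The mean signal of the 64 control probe sets was 9.82 on that array and 8.45 to 8.84 on the other arrays; its part in the results was not tested. Its mean correlation with the arrays of its group was 0.931, against 0.957 and 0.958 for DN-MCU adults 1 and 2. The values were 0.970, 0.981 and 0.980 for WT adults 1, 2 and 3, and 0.991 to 0.993 for the neonatal arrays. WT adult 1 scored 24.4 on the second component, and WT adults 2 and 3 scored -48.3 and -50.9. The summed linear signal of epicardial and mesothelial markers was 1834, 366 and 623 in WT adults 1, 2 and 3. The part of WT adult 1 in the results was not tested. The median SD of a probe set was 0.400 in DN-MCU adults, 0.226 in WT adults, 0.141 in DN-MCU neonates and 0.132 in WT neonates. Mcu itself gave 8.44 to 10.41 in the 6 DN-MCU hearts and 2.45 to 4.55 in the 6 WT hearts with probe set 1442031_at, while 1453166_at gave 7.39 to 8.14 in DN-MCU hearts and 7.41 to 8.18 in WT hearts. All 8 cardiomyocyte markers were above the filter level on every array, and their summed linear signal was 286471 to 298997 in DN-MCU adults and 290323 to 320255 in WT adults. In whole hearts, fewer cells of a type and less RNA per cell cannot be told apart.

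The T-type gene Cacna1g was lower in adult DN-MCU hearts than in adult WT hearts. Its probe set, 1423365_at, read 3.10, 3.32 and 5.23 in DN-MCU adults and 5.74, 5.83 and 5.65 in WT adults. The groups did not overlap; DN-MCU adults 1 and 2 lay under the filter level of 3.35, close to background, and DN-MCU adult 3, the array that stood apart, lay near the WT range. The log2 difference was -1.86 (SE 0.45, 95% interval -2.86 to -0.86, n = 3 against 3), a fall of 3.63-fold, with an adjusted p of 0.0425 by limma over all 24176 probe sets tested. Without DN-MCU adult 3 it was -2.53 (SE 0.19, adjusted p = 8.78e-05), a size set by the background level since both remaining DN-MCU adults lay under 3.35, and in a fit of the 6 adult arrays alone the adjusted p was 0.325. Leaving out any single one of the other 5 adult arrays gave adjusted p between 0.0792 and 0.135. Leaving out DN-MCU adult 3 and WT adult 1 together gave -2.53 with an adjusted p of 0.000335 by limma. That choice was made after seeing the data and leaves 2 arrays a group, with both DN-MCU values under 3.35, so it adds no support. With the replicate number as a block in neonates or in each age, the call was lost (adjusted p = 0.101 and 0.0943 by limma).

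In newborn hearts Cacna1g was brighter in both genotypes. It read 8.03, 7.88 and 7.64 in DN-MCU neonates and 7.86, 7.92 and 7.33 in WT neonates, and these ranges overlap. The log2 difference was 0.15 (SE 0.45, 95% interval -0.85 to 1.15). The difference between the adult and the neonatal effect was -2.01 (SE 0.64), with an unadjusted p of 0.00972 and an adjusted p of 0.281 by limma, so it did not pass over all probe sets; without DN-MCU adult 3 it was -2.68 with an adjusted p of 0.000981. In DN-MCU hearts Cacna1g was 3.97 lower on the log2 scale in adults than in neonates (SE 0.45, adjusted p = 5.15e-05 by limma), a difference of -4.65 without DN-MCU adult 3, and in WT hearts 1.97 lower (SE 0.45, adjusted p = 0.00475). Apart from that in WT hearts, the sizes of these age differences and of -2.01 and -2.68 depend on the background level. DN-MCU adults 1 and 2, which enter them, lay under the filter level.

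Cacna1h, the other T-type pore, was at background in adult hearts of both genotypes. Probe set 1422710_a_at read 2.51, 2.59 and 2.76 in DN-MCU adults and 2.60, 2.56 and 2.54 in WT adults, all under the filter level, so a difference between adults was not measurable. It read 6.79, 7.26 and 6.54 in DN-MCU neonates and 6.45, 7.28 and 6.36 in WT neonates, overlapping ranges with a log2 difference of 0.16 (SE 0.25, adjusted p = 1 by limma). Between WT adults and WT neonates the log2 difference was -4.13 (SE 0.25, adjusted p = 6.1e-07), and between DN-MCU adults and DN-MCU neonates -4.24 (SE 0.25, adjusted p = 5.51e-07). Both set near-background adult signals against clear neonatal ones, and the probe set passed the filter through the neonates, so their size depends on the background level.

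**Figure D1:**
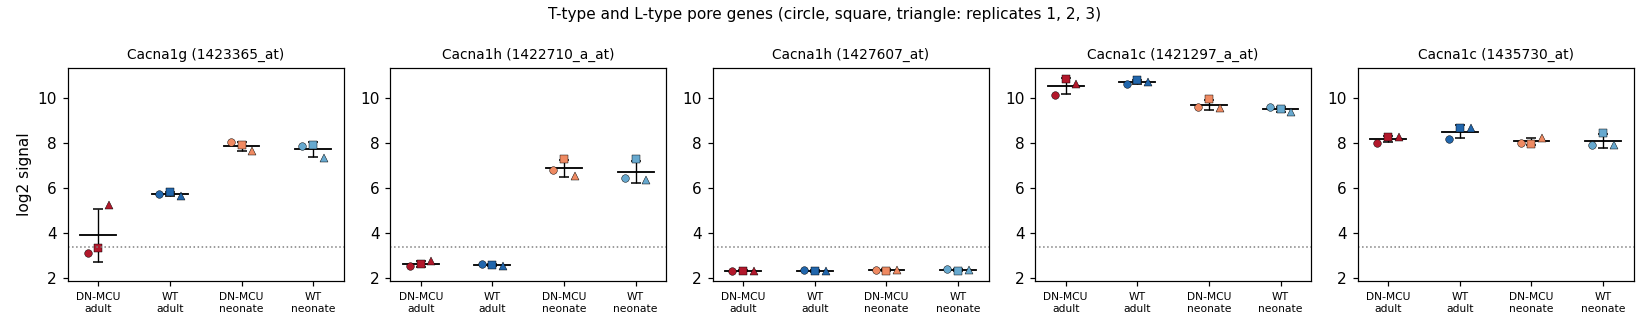
Log2 signal of the T-type pore genes Cacna1g and Cacna1h and the L-type pore gene Cacna1c in each array, by group, with DN-MCU beside WT at each age; circles, squares and triangles are replicates 1, 2 and 3, horizontal bars the mean, error bars the SD (n = 3), and the dotted line the filter level of 3.35. Cacna1g fell to 3.10 and 3.32 in DN-MCU adults 1 and 2, Cacna1h was under the line in all 6 adults, and Cacna1c 1421297_a_at lay above 10 in every adult.

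The L-type pore gene Cacna1c was bright in all hearts and passed no comparison of genotypes. Its brighter probe set, 1421297_a_at, read 10.12, 10.84 and 10.59 in DN-MCU adults and 10.61, 10.80 and 10.69 in WT adults. The adult ranges overlap, and the log2 difference was -0.18 (SE 0.19, 95% interval -0.60 to 0.23, adjusted p = 0.68 by limma). In neonates it read 9.58, 9.93 and 9.53 in DN-MCU hearts and 9.59, 9.50 and 9.38 in WT hearts, a difference of 0.19 (SE 0.19, 95% interval -0.23 to 0.61). The dimmer probe set, 1435730_at, gave -0.33 in adults (SE 0.20, adjusted p = 0.439) and -0.01 in neonates (SE 0.20).

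With age the pore gene rose on 1 of its 2 probe sets. In WT hearts 1421297_a_at was 1.21 higher on the log2 scale in adults than in neonates (SE 0.19, adjusted p = 0.000453 by limma), or 2.31-fold, and in DN-MCU hearts 0.84 higher (SE 0.19, adjusted p = 0.00455). For 1435730_at the values were 8.18, 8.67 and 8.64 in WT adults against 7.88, 8.44 and 7.89 in WT neonates. The difference of 0.42 (SE 0.20) had an adjusted p of 0.104, or 0.039 without WT adult 1 and 0.0306 without WT neonate 2; the 2 probe sets correlated at 0.587 over the 12 arrays.

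The T-type and the L-type pore are set against each other here as changes. The change of Cacna1g minus the change of Cacna1c 1421297_a_at was -1.67 on the log2 scale between DN-MCU and WT adults (SD of the per-array differences 0.80), and it ranged from -2.31 without DN-MCU adult 3 to -1.23 without DN-MCU adult 2. Its size depends on the background level, since Cacna1g lay under the filter level in DN-MCU adults 1 and 2. Between DN-MCU and WT neonates it was -0.04 (SD 0.25). Between WT adults and WT neonates it was -3.18 (SD 0.18), the pores having passed in opposite directions, and -2.78 with the mean of both Cacna1c probe sets. These are descriptions with no test, and signals of different probe sets were not compared as levels.

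Cacna2d1 encodes the alpha2delta subunit, an extracellular protein that raises channel density at the membrane and binds gabapentin. Its 5 probe sets were lower in adult DN-MCU hearts by 0.18 to 1.53 on the log2 scale, and 1 of them passed. That one, 1441608_at, read 3.96, 4.40 and 3.22 in DN-MCU adults and 4.51, 5.93 and 5.74 in WT adults; the groups did not overlap, and DN-MCU adult 3 lay under the filter level. The difference was -1.53 (SE 0.39, adjusted p = 0.0494 by limma). It was -1.21 (adjusted p = 0.0817) without DN-MCU adult 3 and -1.97 (adjusted p = 0.00857) without WT adult 1, and the adjusted p was 0.0976 with DN-MCU adult 1 left out. Dropping WT adult 2 gave 0.183, and dropping WT adult 3 gave 0.178. The 6 adult arrays alone gave an adjusted p of 0.336, and the replicate block in neonates or in each age gave 0.126 and 0.119.

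The bright Cacna2d1 probe sets showed the spread within each adult group. Probe set 1433643_at read 10.40, 11.02 and 8.89 in DN-MCU adults and 10.01, 11.82 and 11.76 in WT adults. Probe set 1449999_a_at read 9.42, 10.10 and 8.61 in DN-MCU adults and 9.57, 11.03 and 10.90 in WT adults. In both, DN-MCU adult 3 was the lowest array and WT adult 1 lay within the DN-MCU range, and their differences were -1.09 (SE 0.55, adjusted p = 0.332 by limma) and -1.12 (SE 0.41, adjusted p = 0.168). Without DN-MCU adult 3 they were -0.49 (adjusted p = 0.589 by limma) and -0.74 (adjusted p = 0.283), and without WT adult 1 that of 1449999_a_at was -1.59 (adjusted p = 0.0276). The pair correlated at 0.980 over the 6 adult arrays.

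Of the remaining Cacna2d1 probe sets, 1425861_x_at read 4.18, 4.31 and 4.36 in DN-MCU adults and 4.53, 5.45 and 5.27 in WT adults, groups that did not overlap, with a difference of -0.80 (SE 0.22, adjusted p = 0.0766 by limma; -1.07 and 0.00785 without WT adult 1). Its suffix marks probes that can match several transcripts. Probe set 1440397_at read 8.57, 8.91 and 8.86 in DN-MCU adults and 8.94, 8.99 and 8.96 in WT adults, also apart, with a difference of -0.18 (SE 0.13, adjusted p = 0.514). With DN-MCU adult 3 and WT adult 1 both left out, a choice made after seeing the data that leaves 2 arrays a group, 4 of the 5 probe sets passed, at -1.08 to -1.65, and 1440397_at gave -0.24 (adjusted p = 0.29). In neonates the 5 differences lay between -0.07 and 0.20. Probe set 1449999_a_at was apart there, at 7.65, 7.85 and 7.70 in DN-MCU hearts and 7.60, 7.46 and 7.54 in WT hearts. Its difference of 0.20 had an SE of 0.41, which comes from 1 spread shared by all 4 groups. The SD of this probe set was 0.11 in DN-MCU neonates and 0.07 in WT neonates, against 0.75 in DN-MCU adults and 0.81 in WT adults.

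Cacnb2 encodes the beta subunit that carries the pore to the membrane and shapes its gating. Probe set 1456401_at read 8.75, 9.03 and 9.49 in DN-MCU adults and 9.15, 9.55 and 9.09 in WT adults, and 1452476_at read 6.26, 7.07 and 7.40 in DN-MCU adults and 7.33, 7.32 and 6.44 in WT adults. Both pairs of ranges overlap, with differences of -0.17 (SE 0.21) and -0.12 (SE 0.32). In DN-MCU neonates 1456401_at read 8.92, 8.75 and 9.18, against 8.81, 8.75 and 9.01 in WT neonates. Neither probe set passed between ages in WT hearts, at 0.41 (adjusted p = 0.141 by limma) and 0.05 (adjusted p = 0.908).

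**Figure D2:**
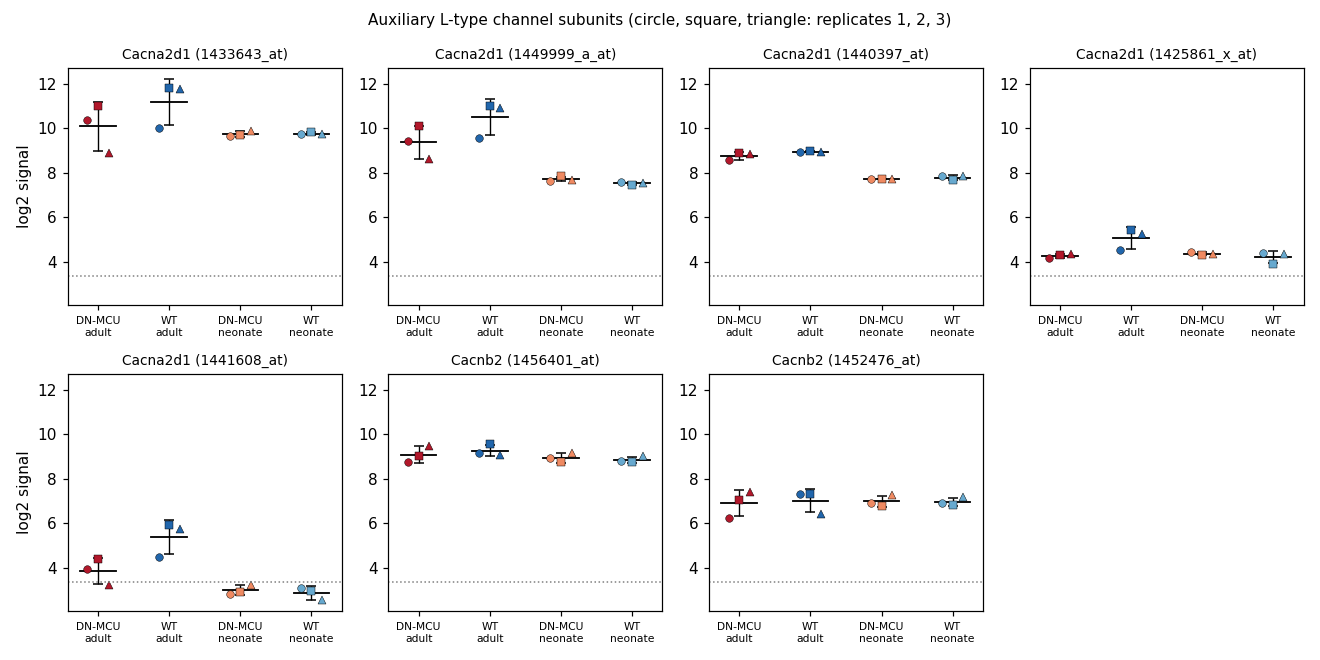
Log2 signal of the 5 probe sets of Cacna2d1 and the 2 of Cacnb2 in each array, by group, with DN-MCU beside WT at each age; circles, squares and triangles are replicates 1, 2 and 3, bars the mean, error bars the SD (n = 3), and the dotted line the filter level of 3.35. In Cacna2d1 1433643_at and 1449999_a_at, DN-MCU adult 3 (8.89 and 8.61) is the lowest adult array and WT adult 1 (10.01 and 9.57) is the lowest of the WT adults.

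Over the 19 probe sets, 0 passed upward and 2 passed downward between DN-MCU and WT adults, both already described, beside 4.77% of all 24176 probe sets (2.82% upward and 1.95% downward); 4 had an unadjusted p under 0.05. In 4 of the 19 every DN-MCU adult was below every WT adult, Cacna1g and 3 of Cacna2d1, where 8.46% of all probe sets were apart in that direction. The median difference was -0.18 for the 19 and -0.02 for all probe sets. With the 6 adult arrays alone, 0 of the 19 passed by limma, beside 0.463% of all. Between DN-MCU and WT neonates 0 of the 19 passed, 0 had an unadjusted p under 0.05, and 0.0165% of all probe sets passed; 1 of the 19 was apart, upward, beside 7.51% of all in that direction. For the difference between the adult and the neonatal effect 0 of the 19 passed by limma, 4 had an unadjusted p under 0.05, and 0.786% of all passed.

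Some markers of other cells differed between the adult groups too. Of 11807 genes, each by its brightest probe set, 5.11% passed between DN-MCU and WT adults (3.42% upward and 1.69% downward). Beside that share and with lists this short, the counts of markers that passed are not read as results. Of 11 conduction system markers, 9 were on the array, and 4 or 5 of the 9 lay at or under the filter level in each adult. Their summed linear signal was 1005 to 1376 in DN-MCU adults and 1961 to 2502 in WT adults, and Smoc2 was the 1 of 5 measured that passed, at -0.91 (SE 0.18, adjusted p = 0.018 by limma). Smoc2 was also the brightest of them, at 9.93 in DN-MCU adults and 10.84 in WT adults. Tbx18 averaged 6.56 in DN-MCU adults and 6.48 in WT adults, and Shox2 4.45 and 5.40. Tbx3, a transcription factor of the nodes, averaged 6.64 in DN-MCU adults and 7.68 in WT adults (adjusted p = 0.0519), while Isl1, Gja5, Cntn2, Scn10a and Vsnl1 averaged 3.20 or less in both. For neuron and glia markers the sum was 83.8 to 120 in DN-MCU adults and 146 to 179 in WT adults (5 on the array). Of 4 measured, 1 passed, downward. Dbh averaged 4.98 in DN-MCU adults and 6.62 in WT adults, and S100b 3.95 and 4.28. Prph (4.57 and 4.25) and Sox10 (4.37 and 4.11) went the other way. Mean log2 levels of this list overlapped, at 3.893 to 4.243 in DN-MCU adults and 4.197 to 4.467 in WT adults. Endothelial markers summed to 5100 to 5483 in DN-MCU adults and 5833 to 6245 in WT adults (7 on the array, 0 passed). Smooth muscle markers summed to 29688 to 32412 in DN-MCU adults and 11336 to 17112 in WT adults, with Acta2 at 14.49 and 12.80 and the 1 that passed. Their mean log2 levels overlapped, at 8.86 to 9.10 in DN-MCU adults and 8.50 to 9.06 in WT adults. Acta2 was the brightest of the list and weighs most in the sum. Smtn averaged 7.91 in DN-MCU adults and 8.64 in WT adults, and Myh11 8.07 and 8.19. Des (12.52 and 12.11), Tagln (10.11 and 9.75) and Cnn1 (7.04 and 6.80) went the other way, and Lmod1 (2.94 and 2.83) was under the filter level. Atrial markers summed to 85630 to 87024 in DN-MCU adults and 89148 to 91831 in WT adults (7 on the array, 0 passed). Sln averaged 12.22 in DN-MCU adults and 13.56 in WT adults, Myl7 13.76 and 14.44, and Nr2f2 7.52 and 8.11. Nppa (15.28 and 14.94), Myl4 (14.48 and 14.29) and Pam (12.21 and 12.07) went the other way, and Bmp10 averaged 3.84 and 3.87. Adipocyte markers summed to 7191 to 31210 in DN-MCU adults and 19233 to 30170 in WT adults, with DN-MCU adult 3 the lowest. The part of these cells in the Cacna1g and Cacna2d1 values was not tested.

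The exchanger gene Slc8a1 passed no comparison of genotypes, its differences being within the spread of the arrays. Its brightest probe set, 1437675_at, read 8.97, 9.76 and 7.98 in DN-MCU adults and 8.13, 8.70 and 8.93 in WT adults, ranges that overlap, with a difference of 0.32 (SE 0.39, 95% interval -0.55 to 1.19, adjusted p = 0.746 by limma). In neonates it read 11.11, 11.15 and 11.66 in DN-MCU hearts and 11.18, 10.97 and 11.52 in WT hearts, a difference of 0.08 (SE 0.39). The other 3 probe sets gave 0.08 to 0.54 in adults and -0.35 to -0.07 in neonates, none past the test.

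With age Slc8a1 fell on all 4 probe sets, in each genotype. Between WT adults and WT neonates 1437675_at was 2.64 lower on the log2 scale (SE 0.39, adjusted p = 0.000322 by limma), a fall of 6.23-fold. For 1440201_at the difference was -2.88 (SE 0.28, adjusted p = 1.85e-05), with WT adult values of 2.86, 3.41 and 3.49 around the filter level, so that its size depends on the background. Probe set 1425817_a_at gave -2.39 (SE 0.60, adjusted p = 0.00779), or -3.09 without WT adult 2, and 1420210_at -1.52 (SE 0.29, adjusted p = 0.00171). In DN-MCU hearts the 4 differences lay between -2.63 and -1.09, with adjusted p of 3.61e-05 to 0.0325; the highest, of 1425817_a_at, was 0.112, 0.103 and 0.0777 without DN-MCU adult 2, DN-MCU neonate 2 or DN-MCU neonate 3, and 0.0615 and 0.105 with the replicate block in neonates or in each age.

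The Slc8a1 probe sets did not follow each other among adults. Probe set 1425817_a_at read 6.76, 5.12 and 6.87 in DN-MCU adults and 4.88, 7.12 and 5.11 in WT adults, where the brightest probe set had its highest values in DN-MCU adults 2 and 1. Over the 6 adult arrays the pair correlated at -0.273, while 1437675_at and 1440201_at correlated at 0.967. The cause was not tested.

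Atp2b1 encodes the widely expressed pump PMCA1. Its probe sets read 9.24, 9.31 and 8.11 (1428936_at), 9.45, 9.38 and 7.37 (1428937_at) and 8.05, 8.02 and 5.94 (1452969_at) in DN-MCU adults. In WT adults the same probe sets read 9.03, 9.55 and 9.46, then 8.87, 9.60 and 9.63, then 7.78, 8.56 and 8.60. DN-MCU adult 3 was the lowest array in all 3, by more than 0.9 on the log2 scale. The differences were -0.46 (SE 0.28), -0.63 (SE 0.47) and -0.98 (SE 0.47), with adjusted p of 0.312 to 0.541 by limma, and without DN-MCU adult 3 they were -0.07, 0.05 and -0.28. With DN-MCU adult 3 and WT adult 1 both left out, 1452969_at passed (adjusted p = 0.0108 by limma). That choice was made after seeing the data and leaves 2 arrays a group, so it adds no support. The 3 probe sets correlated at 0.985 to 0.993 over the 6 adult arrays.

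In neonates Atp2b1 was even across arrays. Probe set 1428936_at read 10.13, 10.21 and 10.07 in DN-MCU neonates and 9.93, 10.16 and 10.02 in WT neonates, and the 3 differences between genotypes lay between -0.08 and 0.10. Between WT adults and WT neonates the 3 differences were -0.69 (adjusted p = 0.0691 by limma), -0.18 (adjusted p = 0.789) and -0.64 (adjusted p = 0.294), so none passed. Between DN-MCU adults and DN-MCU neonates 2 of them passed, 1428936_at at -1.25 (SE 0.28, adjusted p = 0.00454) and 1452969_at at -1.65 (SE 0.47, adjusted p = 0.0154), and without DN-MCU adult 3 they gave -0.86 (adjusted p = 0.00147) and -0.96 (adjusted p = 0.00457).

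Atp2b4, the gene of PMCA4, was dim. Its probe set 1445701_at read 3.48, 3.69 and 3.63 in DN-MCU adults and 3.57, 3.56 and 4.22 in WT adults, just above the filter level. In neonates it read 3.54, 3.16 and 3.44 in DN-MCU hearts and 3.68, 3.50 and 3.58 in WT hearts. The differences were -0.18 in adults and -0.21 in neonates (SE 0.19 each), and 0.20 between WT adults and WT neonates (adjusted p = 0.431 by limma).

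**Figure D3:**
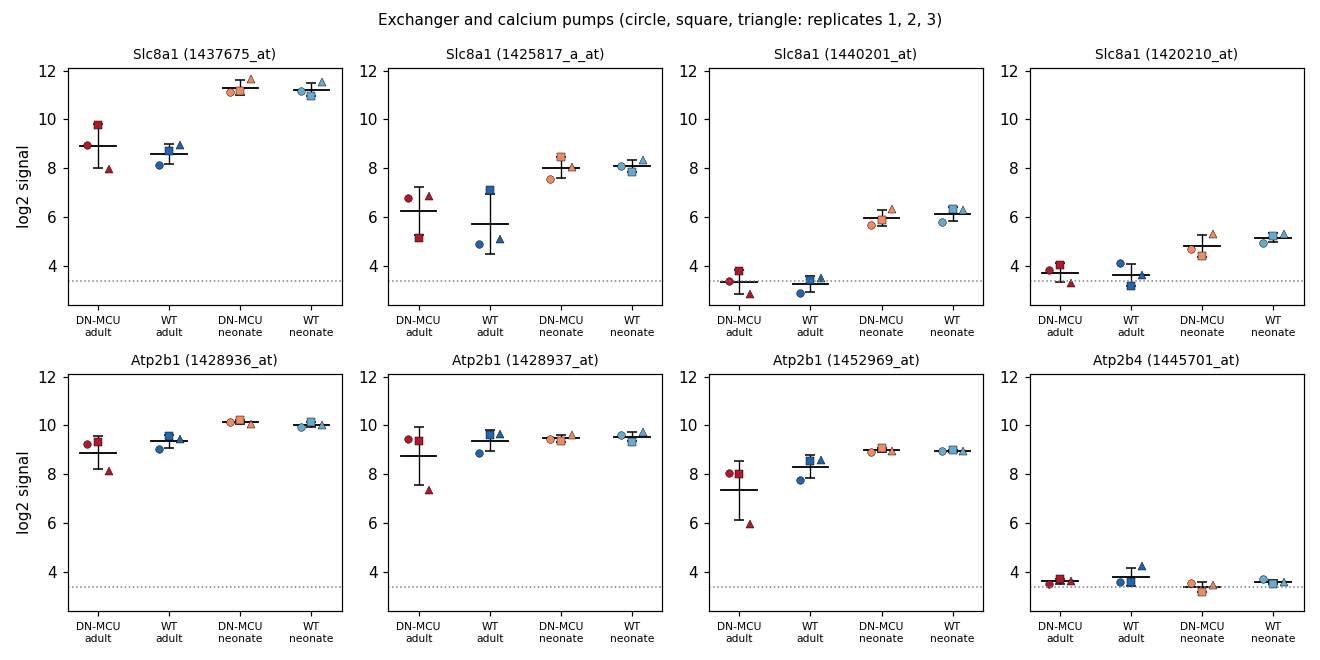
Log2 signal of the 4 probe sets of Slc8a1, the 3 of Atp2b1 and the 1 of Atp2b4 in each array, by group, with DN-MCU beside WT at each age; circles, squares and triangles are replicates 1, 2 and 3, bars the mean, error bars the SD (n = 3), and the dotted line the filter level of 3.35. All 4 Slc8a1 probe sets are lower in adults than in neonates of the same genotype, and DN-MCU adult 3 is the lowest array in all 3 Atp2b1 panels.

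Cacna2d1 was the gene with the largest upward change of age among the 8. In WT hearts 1449999_a_at was 2.97 higher on the log2 scale in adults than in neonates (SE 0.41, adjusted p = 0.000185 by limma), or 7.83-fold. Probe set 1440397_at, with the smallest spread, read 8.94, 8.99 and 8.96 in WT adults and 7.85, 7.68 and 7.85 in WT neonates, a difference of 1.17 (SE 0.13, adjusted p = 3.78e-05), or 2.24-fold. Probe set 1425861_x_at gave 0.85 (SE 0.22, adjusted p = 0.01). Probe set 1441608_at was above the filter level in WT adults and under it in all 6 neonates (3.12, 2.97 and 2.54 in WT neonates), so its difference of 2.52 (SE 0.39, adjusted p = 0.000386) depends on the background level and adds no support. The brightest, 1433643_at, read 9.73, 9.84 and 9.74 in WT neonates, and its difference of 1.43 (SE 0.55) had an adjusted p of 0.054; without WT adult 1 it was 2.03 (adjusted p = 0.00728). In DN-MCU hearts 2 of the 5 passed, 1449999_a_at at 1.64 (SE 0.41, adjusted p = 0.00755) and 1440397_at at 1.06 (SE 0.13, adjusted p = 7.63e-05).

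Counted over the 19 probe sets, 5 rose and 6 fell between WT adults and WT neonates, beside 45.1% of all probe sets (20.6% upward and 24.4% downward). The 5 were 1 of Cacna1c and 4 of Cacna2d1, and the 6 were Cacna1g, Cacna1h and the 4 of Slc8a1. The median difference was 0.05 for the 19 and -0.07 for all probe sets. Between DN-MCU adults and DN-MCU neonates 3 rose and 8 fell, beside 46% of all (20.3% upward and 25.7% downward), with medians of -0.09 and -0.07. Of the 11 in WT hearts, Cacna1h 1422710_a_at and Cacna2d1 1441608_at passed the filter only through the age at which they were high, so they had to differ, and neither count is read as a result. Marker sums differed with age as well: between WT adults and WT neonates they were 290323 to 320255 against 248066 to 253225 for cardiomyocyte markers, 47546 to 56750 against 59314 to 70326 for fibroblast markers, and 366 to 1834 against 1533 to 2673 for epicardial and mesothelial markers. Their part in the age differences was not tested.

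**Figure D4:**
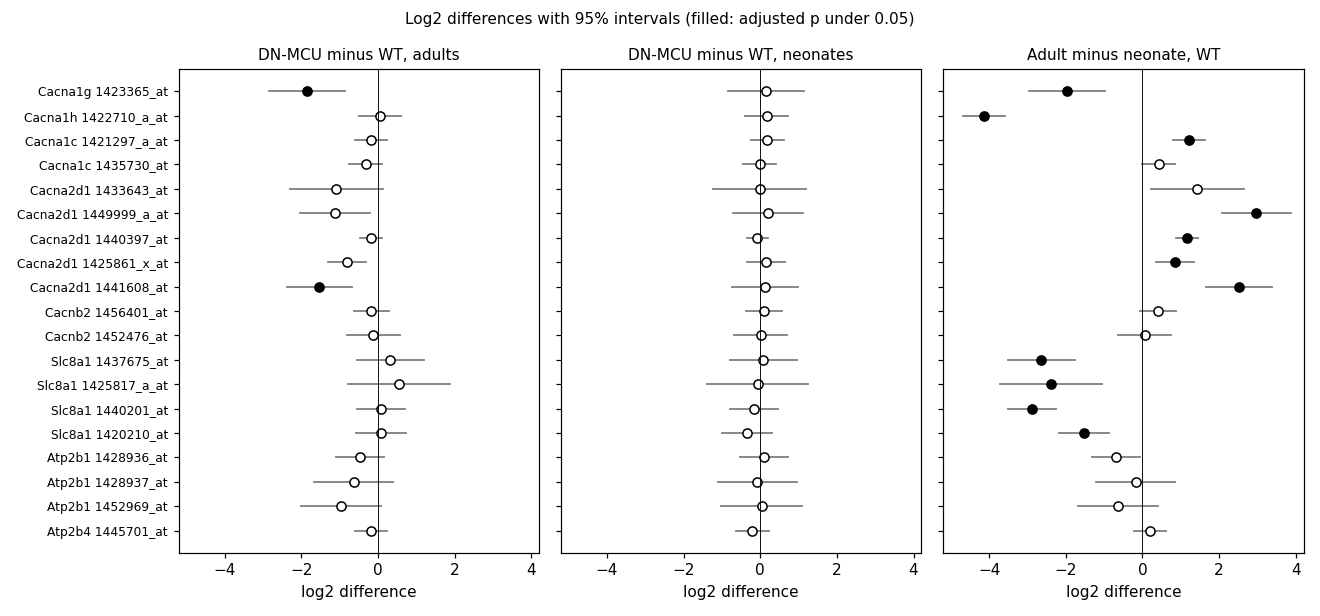
Log2 differences of the 19 tested probe sets with 95% intervals from limma, for DN-MCU minus WT in adults (left), DN-MCU minus WT in neonates (middle) and adult minus neonate in WT hearts (right); filled points had an adjusted p under 0.05. Filled points number 2 on the left, 0 in the middle and 11 on the right, where Cacna1h lies at -4.13 and Cacna2d1 1449999_a_at at 2.97.

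The start regions of Slc8a1 and Cacna2d1 are printed as 2 examples that differ in base composition. Several probe sets of each of these 2 genes passed between WT adults and WT neonates, in opposite directions. The windows come from the RefSeq promoter table for GRCm38.p6, which held 10 start windows for 6 of the 8 genes. It held none for Cacna1g or Cacna1h, which passed with age too. Each is the 250 bases before the start, 5′ to 3′ on the strand of the gene, at chr17:81738388-81738637 on the minus strand for Slc8a1 and chr5:15934441-15934690 on the plus strand for Cacna2d1. Capitals mark AGATAA, the GATA site, in Slc8a1, and GGGCGG, the GC box, in Cacna2d1, where all its matches lie on the other strand and some touch.
Slc8a1: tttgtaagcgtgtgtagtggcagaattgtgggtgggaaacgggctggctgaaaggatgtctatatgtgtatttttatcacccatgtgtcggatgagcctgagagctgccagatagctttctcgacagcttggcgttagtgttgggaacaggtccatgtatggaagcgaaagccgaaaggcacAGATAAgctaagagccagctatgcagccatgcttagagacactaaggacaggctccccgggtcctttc
Cacna2d1: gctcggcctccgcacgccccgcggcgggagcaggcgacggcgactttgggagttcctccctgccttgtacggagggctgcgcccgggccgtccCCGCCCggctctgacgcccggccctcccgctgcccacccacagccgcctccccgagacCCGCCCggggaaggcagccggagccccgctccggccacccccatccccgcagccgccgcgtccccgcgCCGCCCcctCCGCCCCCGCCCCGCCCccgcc
The Slc8a1 window was 50.4% G and C with 8 CpG pairs, and held AGATAA at position -68, counted from the start. The Cacna2d1 window was 82.4% G and C with 36 CpG pairs, and held GGGCGG 6 times. Searched on both strands, AGATAA was found in 9.99% and GGGCGG in 32.7% of all 32851 windows of this length; CATTCC (12.6%), the MCAT element, and TATAAA (12.4%) were searched too and found in neither, and CANNTG, the E-box, was found in 66.2% of windows and in that of Slc8a1 at position -169, left in lower case. The matches describe letters, and no binding was measured. The windows of Cacna1c, whose brighter probe set rose with age, were 51.6%, 82.8% and 50.4% G and C. Those of Atp2b1, which did not pass between WT ages, were 78.4% and 80.8%. For Cacnb2 and Atp2b4, which did not pass either, they were 73.2% and 46%, and 45.6%. A link of base composition with the direction of change was not tested.

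Other genes that handle calcium at the surface membrane were counted from lists, each gene by its brightest probe set. Of 21 other voltage-gated calcium channel genes, 5 were measured. Between DN-MCU and WT adults 0 of the 5 passed by limma (0 at an unadjusted p under 0.05), where 5.11% of 11807 genes passed. Between WT adults and WT neonates 3 of the 5 fell, where 27.8% of genes fell. They were Cacng6, a gamma subunit, at -2.04 (SE 0.19, adjusted p = 1.5e-05), Cacna2d2, an alpha2delta subunit, at -1.40 (SE 0.25, adjusted p = 0.00122), and Cacna1d, the L-type pore known from the sinoatrial node, at -0.55 (SE 0.19, adjusted p = 0.0325). Cacna2d2 thus fell with age where Cacna2d1 rose.

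Among 12 other exchangers and pumps, 5 were measured, and 0 passed between DN-MCU and WT adults by limma (1 at an unadjusted p under 0.05). With age in WT hearts Atp2b2, a further plasma membrane calcium pump, rose by 1.62 (SE 0.37, adjusted p = 0.00429). Fxyd1, the sodium pump regulator phospholemman, rose by 0.91 (SE 0.17, adjusted p = 0.00126), and Atp1b2, a sodium pump subunit, fell by 0.69 (SE 0.21, adjusted p = 0.0219). Of 10 measured regulators and partners of the L-type channel, 0 passed between DN-MCU and WT adults (1 unadjusted), where 5.11% of genes passed. With age in WT hearts 3 rose and 1 fell, where 17.2% of genes rose and 27.8% fell. Jph1 and Jph2, junctophilins that hold the surface membrane beside the sarcoplasmic reticulum, rose by 1.21 (SE 0.16, adjusted p = 0.000123) and 0.93 (SE 0.24, adjusted p = 0.00985). Cav3, caveolin of muscle, fell by 1.05 (SE 0.25, adjusted p = 0.00562). Of 7 measured genes of store-operated and TRP channel entry, 0 passed between DN-MCU and WT adults by limma, where 5.11% of genes passed. Between WT adults and WT neonates 0 of the 7 passed, where 45% of genes passed. Each comparison had 2 at an unadjusted p under 0.05. Between DN-MCU and WT neonates 0 genes of these 4 lists passed by limma, and 0 had an unadjusted p under 0.05, where 0.0254% of genes passed.

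The genes whose signals followed the pores most closely over the 12 arrays were ranked by Pearson correlation. For Cacna1g they were P3h4 (0.991), Epb41l3 (0.984), She (0.983), Efnb3 (0.982) and Sox7 (0.981), and 410 of 20782 probe sets exceeded 0.9. For Cacna1h they were Cthrc1 (0.997), Sox11, Pdxp, Zfp618 and Sox4 (0.996 each), with 2488 over 0.9. For Cacna1c they were Bola3 (0.979), Cs (0.975), Doc2g (0.973), Cisd1 (0.971) and Phkg1 (0.970), with 873 over 0.9. These are descriptions over arrays that share the step between ages, which any gene that changes with age follows.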

How the data were processed

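Total RNA (500 ng a sample) from whole hearts was labelled and run on 12 Affymetrix arrays, according to the labels' protocols. The authors deposited 1 table of log2 signals of 45101 probe sets; that they are log2 was read from the range of values. The submitters' processing notes name Partek without a version or role, the normalization steps being not given in the sources used here. Probe sets were named from the platform annotation: 34945 carried 1 gene symbol, 932 several and 9160 none.

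After removal of 64 control probe sets and with no further normalization, probe sets with at least 3 of 12 values above the median of all values (3.35) were kept, which left 24176. A model of 4 group means over the 12 arrays was fitted in limma 3.58.1 (R 4.3.3; 8 residual degrees of freedom), with Benjamini-Hochberg adjustment within each of 5 comparisons and a threshold of 0.05; the fit was tested on simulated data. An exact 3 against 3 permutation test cannot fall below 0.1, so none was used. Marker sums are of linear signals. The number of arrays limits the precision. The members and gene lists were chosen with earlier results of these data known. Every member probe set is named; of the other calcium lists, those that passed between genotypes and the 3 largest that passed with age; for each pore, the 5 genes of highest correlation. Alternatives were quantile normalization, centring, other filters, fits of the compared groups alone, array weights, replicate blocks and leaving out arrays. Same-numbered arrays deviated together in neonates (correlations 0.133, 0.223 and 0.283) and not in adults (-0.381, 0.410 and -0.428). Neonatal arrays of different number correlated at -0.292 to 0.0902. The labels give replicate numbers and state no pairing, so the blocks are alternatives and the main fit has none.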

Additional observations from a re-analysis of the deposited data

How the results depend on the processing

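Between DN-MCU and WT adults, the 2 member probe sets that passed became 1 with quantile normalization, with arrays centred on their medians and with the stricter filter (log2 7.25), 0 without a filter, 0 with the adult arrays alone and 4 with array weights. The stricter filter left untested Cacna1h, Atp2b4, Cacna2d1 1425861_x_at and 1441608_at, and Slc8a1 1440201_at and 1420210_at, so its counts in each comparison are over fewer probe sets. The count was 6 without DN-MCU adult 3 and WT adult 1, a choice made after seeing the data that leaves 2 arrays a group. These 6 were Cacna1g, 4 probe sets of Cacna2d1 and Atp2b1 1452969_at. Leaving out single arrays gave 0 to 3. With the replicate block in neonates, or in each age, the count was 0: Cacna1g had adjusted p of 0.101 and 0.0943, and Cacna2d1 1441608_at 0.126 and 0.119. In DN-MCU adults against DN-MCU neonates the block took Slc8a1 1425817_a_at to 0.0615 and 0.105, and it changed no other call. The count over all probe sets, 1152, ranged from 112 with the adult arrays alone to 3140 without the 2 arrays, with 1071 under quantile normalization, 2036 with weights, 636 and 568 with the blocks, and 619 to 2214 without single arrays. The count for the difference of effects was 0, 4 with array weights, and 0 to 1 without single arrays. The count for WT adults against WT neonates was 11, 7 under the stricter filter, and 11 to 13 without single arrays; centring shifted all of those differences by a median of -0.13, after which Atp2b1 1428936_at passed (adjusted p = 0.0405), and Cacna1c 1435730_at (0.0333) and Cacna2d1 1433643_at (0.0374) passed with quantile normalization.

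Signs turned in values that had not passed. With array weights these were Cacnb2 1452476_at (-0.083 in neonates, -0.044 in WT ages), Cacna1c 1435730_at (0.068 in neonates), Slc8a1 1437675_at (-0.079 in neonates), Slc8a1 1425817_a_at (-0.22 in adults; -0.18 without the 2 arrays), the difference of effects of Atp2b4 (-0.048), and Cacnb2 1456401_at (-0.019 in DN-MCU ages). With centring they were Cacna1c 1435730_at (0.012 in neonates, -0.039 in DN-MCU ages), Cacna2d1 1433643_at (0.0080 in neonates), Cacnb2 1452476_at (-0.077 in WT ages) and Cacnb2 1456401_at (-0.0074 in DN-MCU ages). With quantile normalization Cacnb2 1452476_at was -0.031 in neonates and 0.18 in DN-MCU ages. Without single arrays the adult differences ranged from -0.35 to 0.013 (Cacna1c 1421297_a_at), -0.014 to 0.11 (Cacna1h), -0.37 to 0.00013 and -0.41 to 0.20 (Cacnb2), -0.11 to 0.78, -0.15 to 0.33 and -0.14 to 0.32 (Slc8a1 1437675_at, 1440201_at and 1420210_at), -0.99 to 0.050 (Atp2b1 1428937_at) and -0.29 to 0.036 (Atp2b4). For the differences of effects they ranged from -0.40 to 0.092 (Cacna1h), -0.42 to 0.19 (Cacnb2 1452476_at), -0.19 to 0.70 (Slc8a1 1437675_at), -0.91 to 0.13 (Atp2b1 1428937_at) and -0.089 to 0.24 (Atp2b4). Between WT ages they ranged from -0.095 to 0.35 (Cacnb2 1452476_at), -0.31 to 0.071 (Atp2b1 1428937_at) and -0.023 to 0.31 (Atp2b4), and between DN-MCU ages from -0.058 to 0.31 and -0.32 to 0.25 (Cacnb2) and -0.10 to 0.96 (Cacna2d1 1433643_at). In neonates they ranged from -0.11 to 0.17 (Cacna1c 1435730_at), -0.037 to 0.26 (Cacna1g), -0.035 to 0.46 (Cacna1h), -0.022 to 0.19 and -0.14 to 0.11 (Cacnb2), -0.082 to 0.033, -0.0020 to 0.24 and -0.046 to 0.25 (Cacna2d1 1433643_at, 1425861_x_at and 1441608_at), -0.097 to 0.23 and -0.28 to 0.16 (Slc8a1 1437675_at and 1425817_a_at), and -0.18 to 0.0059 and -0.018 to 0.066 (Atp2b1 1428937_at and 1452969_at). Over all alternatives, 1284 member values kept sign and side of the threshold, 31 came to pass, 27 no longer passed and 72 turned sign; the cause was not tested. The change of Cacna1g minus that of Cacna1c between WT ages was -2.78 with both Cacna1c probe sets. Signals near 3.35 limit what can be measured for Cacna1h, Atp2b4 and the dim probe sets of Cacna2d1 and Slc8a1.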
